A study of Mus musculus with 4 samples.

Results

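Interferon stimulated genes are the genes that a cell switches on when interferon reaches its receptors. Here 46 of them were listed by name, and 44 had values among the 15093 genes of the single-cell count table, while Mx1 and Mx2 were not analysed here. The counts came from peripheral blood mononuclear cells of 4 wild-type female C57BL/6 mice aged 3.2 ± 0.3 months. Of these, 2 mice were anaesthetised and had the skin of the left ear irradiated with non-thermal plasma (NTP), a partially ionised gas of low temperature (treated mouse 1, Maus3_2, and treated mouse 2, Maus6, the only ID without the suffix _2, whose meaning the labels do not give). The other 2 mice were anaesthetised without NTP (untreated mouse 1, Maus2_2, and untreated mouse 2, Maus4_2). Blood was taken 120 min after irradiation in treated mice and 120 min after anaesthesia began in untreated mice, so treatment and a longer anaesthesia cannot be told apart. Each value describes circulating cells and not the skin that met the plasma. The comparison of both groups asks whether the treatment is followed by a change in circulating blood cells, and each mouse gave 1 library.

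Type I interferons signal through a receptor that activates the kinases JAK1 and TYK2, and these lead to the factor ISGF3, which contains STAT2 and IRF9. ISGF3 and the interferon regulatory factors (IRFs) bind a promoter element called the ISRE. Interferon gamma uses its own receptor, and its signal reaches genes through the GAS element. The proteins made sense viral nucleic acid, cut or bind it, tag proteins with ISG15, disrupt the vacuoles of intracellular pathogens, or amplify the signal. Resting lymphocytes keep many of these genes at a low tonic level without infection.

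The members share promoter letters that the list did not use. In RefSeq windows of GRCm38.p6, from 250 bases before to 50 bases after a start site, the ISRE core GAAANNGAAA was searched on both strands. It was found in 21 of the 37 members with a window (56.8%), against 3.99% of 27025 genes. The GAS letters TTCNNNGAA, which read the same on both strands, were found in 12 of the 37 members (32.4%), against 9.55% of all genes. Both were found in 6 members and neither in 10, and 7 members had no window. Of 48 member windows, 39 had bases after the start site that occur in an annotated transcript of the same gene. Their position within the transcript was not checked. A match describes letters and is not a measured binding site, and letters absent from the window say nothing about a factor. The following stretches are printed because their genes recur in the results. Capitals mark 1 match in each stretch, further matches that overlap it stay in lower case, each stretch reads in the direction of its gene, and an ISRE core on the opposite strand appears as TTTCNNTTTC.
Ifit1, chr19:34640794-34640823, plus strand: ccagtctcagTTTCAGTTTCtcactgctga
Ifit3, chr19:34583397-34583426, plus strand: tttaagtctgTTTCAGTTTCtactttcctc
Isg15, chr4:156200871-156200900, minus strand: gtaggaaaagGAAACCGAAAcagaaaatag
Oas1a, chr5:120907520-120907549, minus strand: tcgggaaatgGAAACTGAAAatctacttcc
Bst2, chr8:71537577-71537606, minus strand: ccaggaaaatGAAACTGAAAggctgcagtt
Igtp, chr11:58199512-58199541, plus strand: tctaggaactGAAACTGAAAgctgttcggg
Irgm2, chr11:58214903-58214932, plus strand: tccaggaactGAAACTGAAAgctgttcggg
Gbp2, chr3:142620594-142620623, plus strand: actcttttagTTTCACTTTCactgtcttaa
Gbp3, chr3:142559989-142560018, plus strand: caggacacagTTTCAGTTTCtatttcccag
Ifi203, chr1:173942508-173942537, minus strand: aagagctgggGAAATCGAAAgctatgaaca
Ifi206, chr1:173491339-173491368, minus strand: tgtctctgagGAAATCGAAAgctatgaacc
Ifi213, chr1:173599326-173599355, minus strand: cgtctctgagGAAATCGAAAgctatgaacc
Irf1 (GAS), chr11:53769914-53769942, plus strand: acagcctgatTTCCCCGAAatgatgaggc
Isg15 held 3 overlapping ISRE cores, and Ifit1, Ifit3, Oas1a, Bst2, Gbp3 and Irgm1 held 2 each. The overlapping GTPase genes Igtp and Irgm2 carried the same core letters, and Ifi203, Ifi206 and Ifi213 carried GAAATCGAAA, each at its own distance from its start. Irf1 had the GAS letters and no ISRE core, whereas Irf7, Irf9, Trim25, Ifi47, Ifi209, Sp100, Xaf1 and Lgals3bp were among the members with neither.

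The table held 23692981 unique molecular identifiers (UMIs, 1 per captured RNA molecule) in 5794 cells. Treated mice 1 and 2 gave 1524 and 1705 cells with medians of 4480.5 and 3655 UMIs, and untreated mice 1 and 2 gave 993 and 1572 cells with medians of 4465 and 3104.5. Only 4 barcodes occurred in more than 1 mouse. The authors' names placed 3130 cells as B cells, 1517 as CD4+ T cells, 600 as CD8+ T cells, 474 as plasmablasts and 73 as NK cells. B and T cell names fitted their markers: Cd79a stood at 2311 CPM (UMIs per 1000000 UMIs) in B cells, Cd4 at 140.6 CPM in CD4+ and Cd8b1 at 649.6 CPM in CD8+ T cells. Annotated plasmablasts carried Cd79a (3249 CPM) and Ms4a1 (1353 CPM). Of the plasmablast markers they had 0 UMIs of Jchain, which had only 2 UMIs in all cells. Mzb1, Xbp1, Sdc1 and Prdm1 stood at 183.4, 24.6, 4.10 and 4.69 CPM in them. In B cells these 4 stood at 181.3, 21.4, 4.13 and 2.96 CPM. Annotated NK cells carried Cd3d (745.5 CPM). Of the NK cell markers, annotated NK cells had Nkg7 at 573.9 CPM, Gzma at 108.5 CPM and Klre1 at 51.3 CPM. Ncr1 and Klrb1c stood at 1.97 CPM each in them. The red cell marker Hbb-bs stood at 407.9 CPM in plasmablasts and 32.6 CPM in B cells, and the 3 red cell markers together reached 3095 CPM in the plasmablasts of untreated mouse 1 against 6.85 to 89.6 CPM in those of the other 3 mice. Monocyte markers summed to 56.1 and 70.9 CPM in treated mice and 62.1 and 102.8 CPM in untreated mice over all cells. Ly6c2 gave 1272 of their UMIs, against 296 for Lyz2, 21 for Csf1r and 3 for Cd14. Ly6c2 stood at 881.6 CPM in NK cells and 200.5 CPM in CD8+ T cells, so this sum does not gauge monocytes alone. In B cells the sum was 18.8 and 26.7 CPM in treated mice, against 6.44 and 90 CPM in untreated mice. Of the markers of plasmacytoid dendritic cells, Siglech had 0 UMIs, Ccr9 199, Tcf4 2936 and Irf8 2441. Tcf4 and Irf8 stood at 215.5 and 177.4 CPM in B cells, and Ccr9 at 36.4 CPM in CD8+ T cells. These markers therefore do not gauge plasmacytoid dendritic cells alone.

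The 44 members took 59755 UMIs, 0.252% of the total. Their summed level was 2679 and 2311 CPM in treated mice, against 2540 and 2563 CPM in untreated mice, so the untreated values lay between the treated ones. The libraries are 3′ UMI counts, 1 count per molecule whatever the transcript length, and CPM below is scaled by the trimmed mean of M-values (TMM) wherever a gene is compared between mice or types. Ifi27l2a, a small interferon-induced membrane protein, led with 12297 UMIs, followed by Sp100, a nuclear body protein (9156), Ifi203, a DNA-binding PYHIN protein (6412), Samhd1, which hydrolyses deoxynucleotides (6219), and Ifi209, also PYHIN (2187). These 5 members held 60.7% of the members' UMIs. Another 8 members had between 1019 and 1985 UMIs.

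At the other end, 4 members had fewer than 100 UMIs in all cells. These were Oas3 (77), Oas2 (76) and Oas1a (54), which make the oligoadenylates that activate RNase L, and Rsad2 (36), viperin, which makes a chain-terminating nucleotide. Within the role groups the most abundant were Irf1 (1572 UMIs) among the transcription factors, Ddx58 (1019), the RNA sensor RIG-I, among the nucleic acid sensors, Oasl2 (141) among the oligoadenylate synthetases and Samhd1 among the antiviral effectors. Trim25 (1985), the ubiquitin ligase that activates RIG-I, led the ISG15, ubiquitin and ADP-ribose enzymes, and Ifi47 (907) led the immunity-related GTPases. The members lie on 15 chromosomes. Ifi203, Ifi47, Igtp, Irgm2 and Irf9 overlap another gene of the table on the same strand, and Oas1a, Ifit3, Gbp2 and the PYHIN genes have close paralogues, so their counts may be split or shared.

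**Figure D1:**
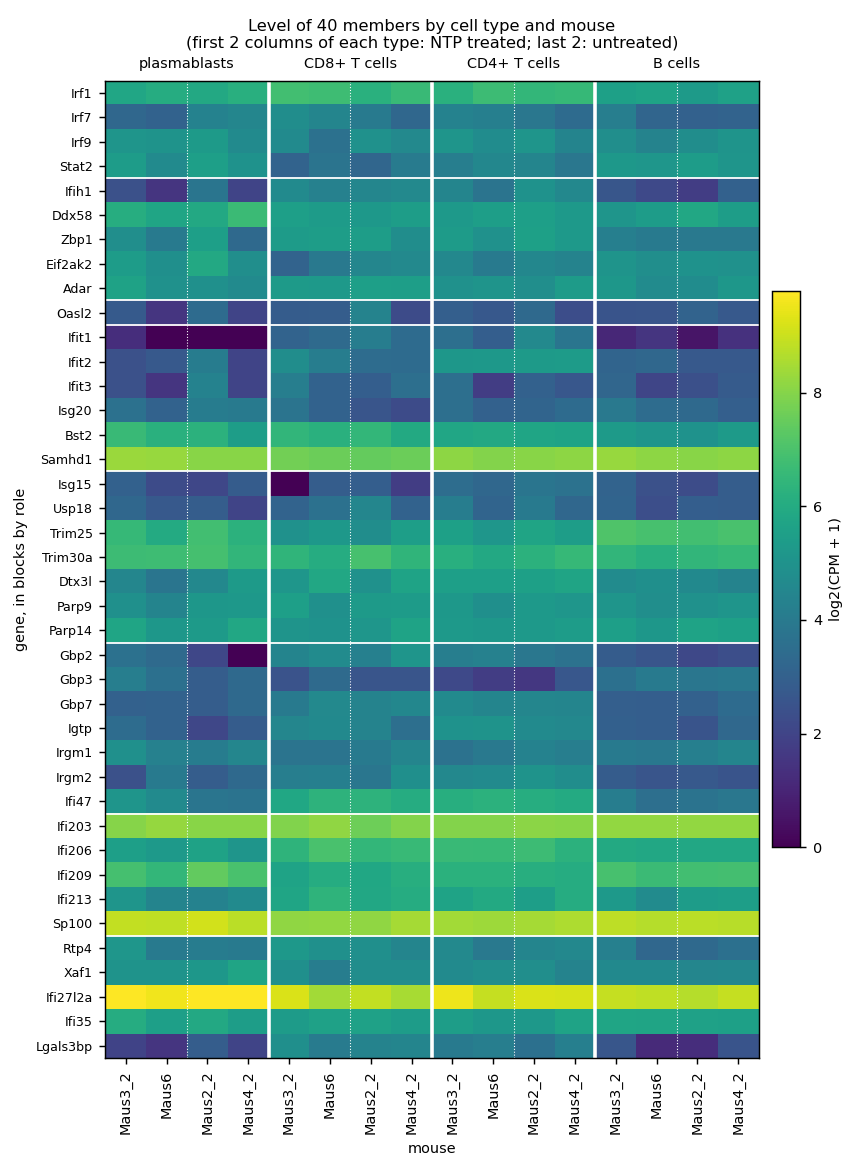
Level of the 40 members that passed the filter on low counts in the comparison of cell types, as log2(CPM + 1), by cell type and mouse (columns) and gene in blocks of role (rows); in each type the first 2 columns are NTP treated and the last 2 untreated mice. Ifi27l2a, Sp100, Ifi203 and Samhd1 are bright in every column, and differences between types are larger than those between mice for Ifit2, Ifi47, Trim25 and Gbp3.

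No member passed the test between NTP treated and untreated mice. Counts were summed per mouse and compared with edgeR's quasi-likelihood test, with Benjamini-Hochberg adjustment over all genes and a threshold of 0.05. Over all cells 0 of 44 tested members passed, and 0% of 11562 genes did. By type it was 0 of 39 members in B cells (0% of 9903 genes), 0 of 39 in CD4+ T cells (0% of 8680 genes), 0 of 32 in CD8+ T cells (0.0294% of 6798 genes) and 0 of 22 in plasmablasts (0.0186% of 5372 genes). The members missing from each count were below the filter on low counts. At an unadjusted p under 0.05 edgeR had 4, 2, 2, 2 and 2 members in that order, which is 9.09%, 5.13%, 5.13%, 6.25% and 9.09% of those tested, where 7.52%, 4.64%, 4.79%, 8.44% and 6.79% of all genes were. DESeq2 passed 0 members in each of the 5 comparisons, with no adjusted p for 35 of the 44 members over all cells. With 2 mice a group an exact permutation test of a single gene cannot go below p = 0.33.

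The size of the differences was small in the abundant members. Over all cells the median log2 fold change, NTP treated over untreated, was -0.03 for the members and 0.00 for all genes, and the standard errors (SE) ran from 0.08 to 0.76 with a median of 0.16. Positive values were found for 20 members and negative values for 24. Both treated mice lay above both untreated mice in 5 members and below in 10, together 15 of 44, where 38.6% of all genes tested did not overlap. That is 34.1% of the members. Non-overlapping members numbered 15 of 39 in B cells (38.5%, against 34.9% of all genes), 16 of 39 in CD4+ T cells (41.0%, against 35.4% of all genes), 10 of 32 in CD8+ T cells (31.3%, against 38.5% of all genes) and 7 of 22 in plasmablasts (31.8%, against 36.8% of all genes). The median log2 fold change of the members was 0.01, -0.05, -0.02 and -0.10 in these 4 types, where that of all genes was between 0.00 and 0.01.

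**Figure D2:**
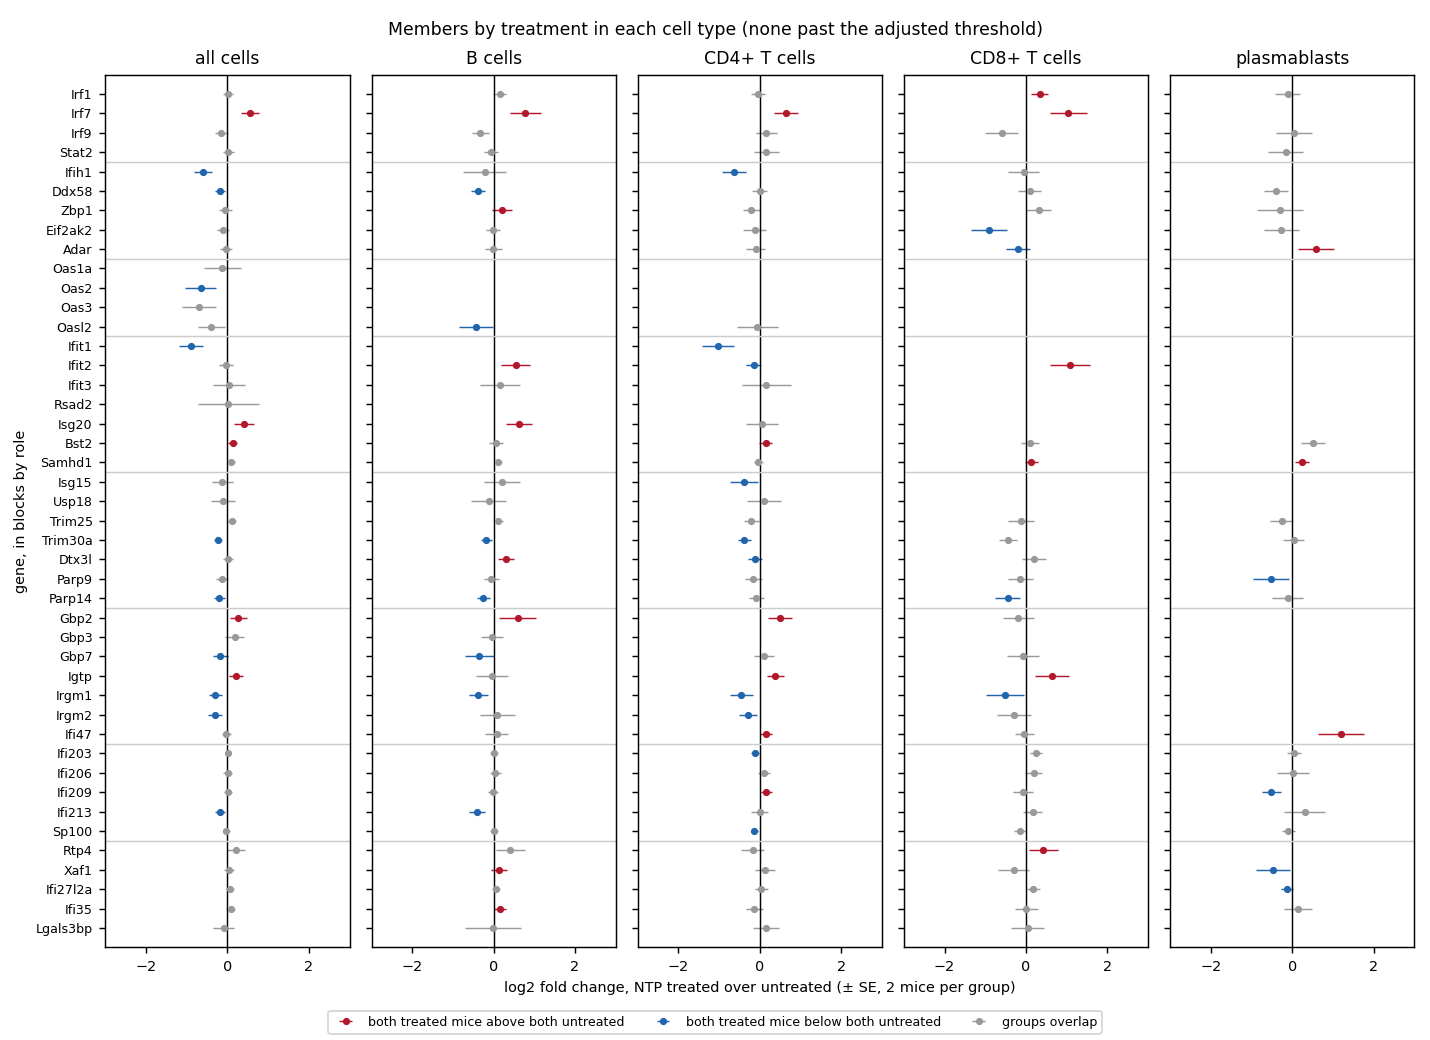
Log2 fold change of each tested member, NTP treated over untreated, with bars of ± 1 SE (2 mice per group), in all cells and in 4 cell types; red points have both treated mice above both untreated mice, blue points both below, grey points overlap. The points lie on both sides of 0 in every panel. Irf7 is red in the B cell panel and both T cell panels, and Irgm1 is blue in the same 3. All panels come from the same mice.

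Among the transcription factors, Irf7, which drives the type I interferon genes, stood at 17.6 and 12.4 CPM in treated mice, against 11.3 and 9.43 CPM in untreated mice over all cells. The treated mice were the higher ones, but the gap between them was larger than the gap to the untreated group. Its log2 fold change was 0.54 ± 0.22 (SE, adjusted p = 0.624 in edgeR). By type, Irf7 was at 17.7 and 8.25 CPM in treated and 7.33 and 7.87 CPM in untreated B cells, and at 18.7 and 17.4 CPM in treated and 13.5 and 9.61 CPM in untreated CD4+ T cells. In CD8+ T cells it had 24.3 and 19.3 CPM in treated mice, from 17 and 20 UMIs, against 13.6 and 7.82 CPM in untreated mice, from 9 and 7 UMIs. No other member had both treated mice above both untreated mice in 3 types. These types come from the same mice, and the share of all genes with this order in 3 types was not counted. In plasmablasts, where Irf7 was below the filter, the order was opposite, with 6 and 4 UMIs (8.67 and 7.49 CPM) in treated mice, against 6 and 7 UMIs (19.4 and 21.4 CPM) in untreated mice. These plasmablast CPM carry the scaling of the comparison of types, which differs from that of the treatment comparisons. Irf1, a factor induced mainly by interferon gamma, measured 61.3 and 72.6 CPM in treated and 60.7 and 71.4 CPM in untreated mice, a log2 fold change of 0.01 ± 0.12. In CD8+ T cells Irf1 had 102.9 and 97.5 CPM in treated mice, against 66.6 and 89.3 CPM in untreated mice (0.33 ± 0.20, adjusted p = 0.689), and the untreated mice lay farther apart than the nearest treated and untreated mice.

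The 5 sensors all had negative values over all cells, with a median log2 fold change of -0.11, and none passed the test. Ifih1, the long RNA sensor MDA5, had 11.4 and 7.83 CPM in treated mice, against 15.1 and 14.1 CPM in untreated mice (log2 fold change -0.60 ± 0.22, adjusted p = 0.601 in edgeR). In CD4+ T cells, where Ifih1 was higher than in B cells, it had 20.6 and 12.6 CPM in treated and 30.1 and 22.4 CPM in untreated mice. Ddx58 had 39.5 and 42.4 CPM in treated mice, against 48.8 and 44.1 CPM in untreated mice over all cells (-0.18 ± 0.12). It measured 34.2 and 42.8 CPM in treated B cells, against 58.1 and 43.1 CPM in untreated B cells, where the closest mice differed by less than 1 CPM, and 78.1 and 61.3 CPM in treated plasmablasts, against 67.9 and 117.5 CPM in untreated ones, where the groups overlapped. Eif2ak2, the RNA-activated kinase PKR that halts translation, had 7.15 and 13.5 CPM in treated CD8+ T cells, against 19.7 and 21.2 CPM in untreated ones (-0.91 ± 0.45, adjusted p = 0.594), from 5 and 14 against 13 and 19 UMIs. Among the oligoadenylate synthetases, Oasl2 had 5.64 and 4.91 CPM in treated mice, against 9.59 and 4.52 CPM in untreated mice, so the groups overlapped.

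Of the antiviral effectors, Ifit1, which binds foreign RNA caps, had the smallest p over all cells. It stood at 4.65 and 3.99 CPM in treated mice, against 10.0 and 6.22 CPM in untreated mice, from 33 and 26 against 47 and 33 UMIs (log2 fold change -0.89 ± 0.30, adjusted p = 0.593 in edgeR). In CD4+ T cells, which held most of its UMIs, Ifit1 had 10.6 and 6.58 CPM in treated and 23.1 and 12.8 CPM in untreated mice (-1.03 ± 0.39, adjusted p = 0.903). Ifit2, its neighbour, had the same order in CD4+ T cells, at 34.5 and 35.3 CPM in treated and 38.5 and 39.1 CPM in untreated mice (-0.15 ± 0.18). In CD8+ T cells, where Ifit1 was below the filter, Ifit2 had the opposite order, with 17 and 16 against 6 and 8 UMIs. It stood there at 24.3 and 15.5 CPM in treated and 9.08 and 8.93 CPM in untreated mice (1.08 ± 0.49, adjusted p = 0.571). Ifit2 in B cells also had both treated mice above both untreated mice. Ifit3 was at 9.44 and 3.38 CPM in treated mice, on both sides of the 6.39 and 6.22 CPM of untreated mice. Isg20, an RNA exonuclease, had 14.8 and 10.2 CPM in treated B cells, against 9.28 and 7.04 CPM in untreated B cells (0.63 ± 0.32, adjusted p = 0.934). Samhd1 was close in all mice over all cells, at 286.0 and 254.6 CPM in treated and 249.2 and 256.5 CPM in untreated mice. In plasmablasts Samhd1 had 360.6 and 363.3 CPM in treated mice, against 305.6 and 306.3 CPM in untreated mice (0.24 ± 0.17, adjusted p = 0.817). Bst2, tetherin, which holds budding virions at the membrane, had 54.5 and 49.1 CPM in treated and 48.6 and 46.6 CPM in untreated mice over all cells. It measured 111.3 and 85.3 CPM in treated plasmablasts and 90.5 and 49.9 CPM in untreated ones.

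Trim30a, a mouse ubiquitin ligase that restrains Toll-like receptor signalling, had 82.6 and 68.6 CPM in treated mice, against 88.7 and 89.2 CPM in untreated mice (log2 fold change -0.23 ± 0.11, adjusted p = 0.656 in edgeR). It stood at 69.5 and 57.4 CPM in treated CD4+ T cells, against 76.3 and 90.3 CPM in untreated ones (-0.38 ± 0.16). In CD8+ T cells it had 77.2 and 60.8 CPM in treated mice, against 110.5 and 77.1 CPM in untreated mice, and its groups overlapped there and in plasmablasts. Trim25 overlapped over all cells, at 93.1 and 79.8 CPM in treated and 78.4 and 82.2 CPM in untreated mice.

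The GTPases had values on both sides of 0. Irgm1, which regulates the other immunity-related GTPases, had both treated mice below both untreated mice in all 3 types tested. As for Irf7, the types come from the same mice, and the share of all genes with this order was not counted. Over all cells Irgm1 had 15.6 and 14.1 CPM in treated mice, against 17.3 and 19.2 CPM in untreated mice (log2 fold change -0.29 ± 0.17, adjusted p = 0.718 in edgeR). In B cells it had 15.9 and 14.3 CPM in treated and 18.1 and 21.1 CPM in untreated mice. Gbp7, a guanylate-binding protein, had 13.0 and 13.0 CPM in treated mice, against 14.3 and 15.1 CPM in untreated mice over all cells (-0.18 ± 0.18), so the groups did not overlap but differed by less than 1 SE. Igtp, also called Irgm3, stood at 29.7 and 31.1 CPM in treated CD4+ T cells, against 24.4 and 22.4 CPM in untreated ones (0.38 ± 0.21, adjusted p = 0.903). Ifi47 was level over all cells, at 37.8 and 38.5 CPM in treated and 40.7 and 37.1 CPM in untreated mice. In plasmablasts Ifi47 had 38.2 and 28.5 CPM in treated mice, against 15.1 and 14.2 CPM in untreated mice (1.19 ± 0.57, adjusted p = 0.728), from 23 and 13 against 4 and 4 UMIs.

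The PYHIN genes and Sp100 did not pass either. Sp100 measured 400.3 and 367.9 CPM in treated and 386.8 and 396.4 CPM in untreated mice, a log2 fold change of -0.03 ± 0.08. Ifi213 had 39.1 and 25.7 CPM in treated B cells, against 42.0 and 44.7 CPM in untreated B cells, and Ifi209 had 134.6 and 102.9 CPM in treated plasmablasts, against 199.9 and 146.0 CPM in untreated ones (-0.52 ± 0.23, adjusted p = 0.710 in edgeR). Ifi27l2a, the most abundant member, stood at 595.9 and 460.9 CPM in treated mice, on both sides of the 503.6 and 509.3 CPM of untreated mice (0.06 ± 0.11). The sum over all cells mixes types whose cell numbers differed, with 833 and 958 B cells and 395 and 392 CD4+ T cells in treated mice, against 498 and 841 B cells and 301 and 429 CD4+ T cells in untreated mice. The part of these numbers and of depth in the differences was not tested gene by gene.

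Whether the log2 fold change between treated and untreated mice differed between types was tested as an interaction of treatment and type within mice. For CD4+ T cells minus B cells 0 of 41 members passed (0.00986% of 10143 genes), and Ifit2 had the smallest unadjusted p (0.0867 in edgeR's model across all genes). For CD8+ T cells minus B cells 0 of 41 passed (0.0101% of 9892 genes), with 0 members at an unadjusted p under 0.05. For plasmablasts minus B cells 0 of 41 passed (0.0303% of 9892 genes). Irf7 (-2.09 ± 0.72, adjusted p = 0.984 in edgeR) and Dtx3l (-1.10 ± 0.53) had an unadjusted p under 0.05. Both were below the filter on low counts in plasmablasts taken alone, with 23 and 42 UMIs there. They entered this fit through types in which they have more UMIs, so their values are not ranked against the others. The share of all genes at an unadjusted p under 0.05 was not counted for these fits. DESeq2 passed 0 members in each of the 3.

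Many members differed between cell types. In 1 fit of 16 sums, 4 types in 4 mice with the mouse as a block, 27 of 40 members differed between CD4+ T cells and B cells. The authors named the types from clusters of the same counts, so these p-values do not test the types. They rest on how the difference between types within a mouse varies from mouse to mouse. In CD4+ T cells 20 members were higher, 50% of those tested against 25.5% of all 9514 genes, and 7 were lower, 17.5% against 26.4% of all genes. The median log2 fold change was 0.29 for the members and 0.00 for all genes. Ranges run over the 4 mice, and per-mouse values are given for treated mice 1 and 2 and then untreated mice 1 and 2. CPM carry the scaling of this fit and can differ from those of the treatment comparisons.

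Ifit1 and Gbp3 passed the filter through the type in which they are high, since Ifit1 was below it in B cells alone and Gbp3 in CD4+ T cells alone, so their fold changes are not ranked against the others. Ifit1 had 10.8, 6.69, 23.6 and 13.1 CPM in CD4+ T cells, against 1.13, 1.86, 0.477 and 1.62 CPM in B cells (log2 fold change 3.16 ± 0.39, adjusted p = 6.67e-11 in edgeR). Its B cell values rested on 15 UMIs in all. Ifit2 stood at 35.3, 35.9, 39.3 and 40 CPM in CD4+ T cells and 7.91, 8.69, 5.72 and 5.66 CPM in B cells (2.38 ± 0.21), so its level was far steadier between mice than that of Ifit1. Bst2 was also higher, at 49.8 to 59.6 CPM against 30.5 to 39.2 CPM in B cells (0.60 ± 0.13). Of the 6 effectors tested these were the 3 that passed, and Ifit3, Isg20 and Samhd1 did not.

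The GTPases formed the group with the most higher calls, 5 of 7. Ifi47 had 68.6, 76.6, 68.1 and 62.3 CPM in CD4+ T cells, against 16.7, 10.9, 12.4 and 13.8 CPM in B cells (log2 fold change 2.35 ± 0.15, adjusted p = 5.55e-23). Irgm2 stood at 22.6 to 31.5 CPM in CD4+ T cells and 4.85 to 6.21 CPM in B cells (2.24 ± 0.23). Igtp, which has the same ISRE core letters, stood at 23.0 to 31.6 CPM and 4.77 to 8.90 CPM (2.01 ± 0.22). Both genes overlap on the same strand, so their counts may be shared and their calls may not be separate. The guanylate-binding proteins, which attack pathogen vacuoles, were split. Gbp2 (1.70 ± 0.28) and Gbp7 (1.56 ± 0.22) were higher in CD4+ T cells, while Gbp3 was lower, at 3.43, 2.43, 1.97 and 5.25 CPM in CD4+ T cells and 11.3, 15.5, 13.4 and 14.2 CPM in B cells (-2.01 ± 0.32). Irgm1 did not pass.

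Among the sensors Ifih1 (log2 fold change 2.19 ± 0.26) and Zbp1, which binds Z-form nucleic acid (1.27 ± 0.17), were higher in CD4+ T cells and Eif2ak2 (-0.61 ± 0.17) was lower. Ddx58 and Adar, which edits double-stranded RNA, did not pass. Ifih1 stood at 12.8 to 30.8 CPM in CD4+ T cells and 2.39 to 7.28 CPM in B cells, whereas Ddx58 stood at 37.4 to 44.6 CPM and 33.3 to 56.8 CPM. The 2 RNA sensors of the same family thus had unequal patterns across these types.

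The transcription factors also went both ways. Irf1 was at 72.6 to 103.3 CPM in CD4+ T cells and 39.1 to 50.3 CPM in B cells (log2 fold change 0.94 ± 0.11), and Irf7 was higher by 0.58 ± 0.25. Stat2, the ISGF3 subunit, was lower, at 13.8 to 21.9 CPM in CD4+ T cells and 33.2 to 41.0 CPM in B cells (-0.96 ± 0.17), while its partner Irf9 did not pass. Of the ISG15 and ubiquitin group, Isg15 (0.92 ± 0.31), Usp18, which removes ISG15 (0.93 ± 0.28), and Dtx3l, a ubiquitin ligase (0.93 ± 0.15), were higher in CD4+ T cells. Trim25 was lower, at 45.6, 34.7, 51.1 and 42.6 CPM in CD4+ T cells and 135.2, 121.7, 113.5 and 124.6 CPM in B cells (-1.52 ± 0.11, adjusted p = 1.06e-20).

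The PYHIN genes, which lie together on chromosome 1, had calls in both directions. Ifi206 (log2 fold change 0.69 ± 0.10) and Ifi213 (0.58 ± 0.14) were higher in CD4+ T cells, and Ifi209 (-0.65 ± 0.10) and Ifi203 (-0.18 ± 0.07) were lower, although Ifi203, Ifi206 and Ifi213 carry the same ISRE core. Sp100 was lower by 0.31 ± 0.06. Lgals3bp, a secreted glycoprotein, had 11.1 to 17.7 CPM in CD4+ T cells, against 1.24 to 5.08 CPM in B cells (2.24 ± 0.31). Rtp4, a receptor chaperone (0.77 ± 0.20), and Ifi27l2a (0.38 ± 0.06) were also higher. In every alternative tried, 25 to 27 of these 27 calls were kept, and those lost were among Ifi203, Irf7, Usp18 and Isg15.

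**Figure D3:**
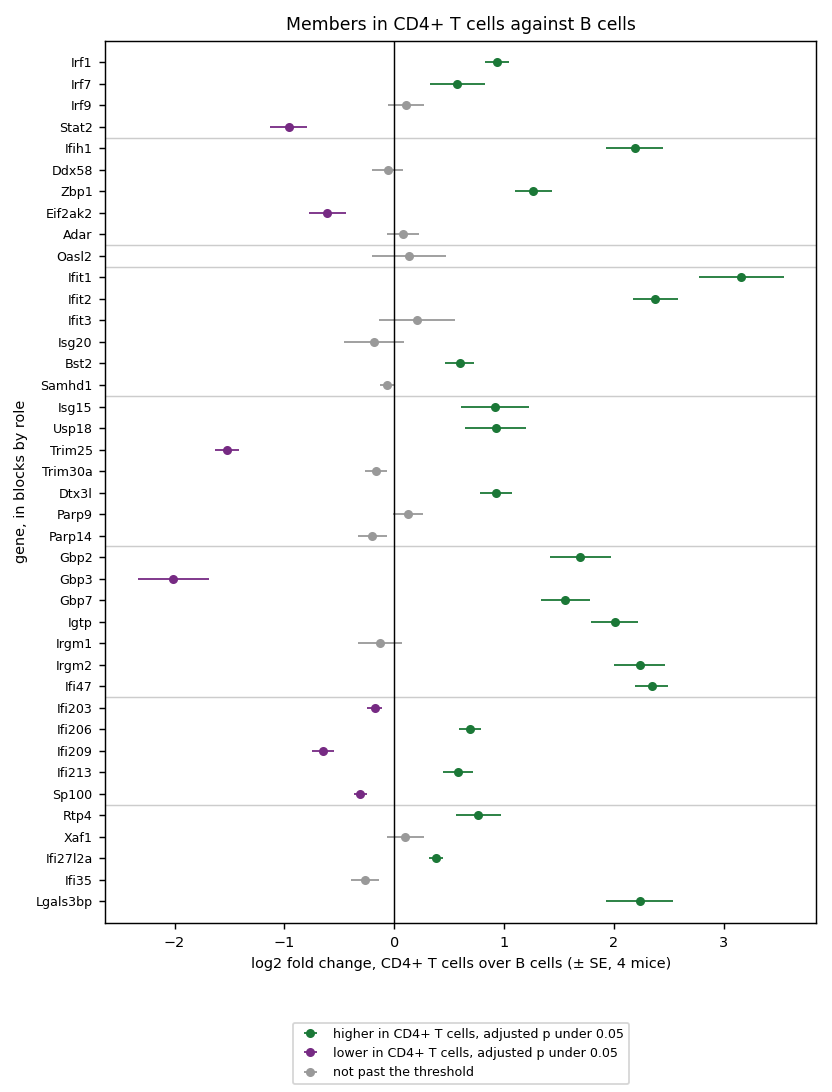
Log2 fold change of 40 members, CD4+ T cells over B cells, with bars of ± 1 SE (4 mice, mouse as block); green points are higher in CD4+ T cells and purple points lower at an adjusted p under 0.05, and grey points did not pass. Of the points 20 are green and 7 purple, and the outermost, Ifit1 and Gbp3, passed the filter through the type in which they are high.

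CD8+ and CD4+ T cells were much closer. In CD8+ T cells 1 of 40 members was higher (2.5%, against 6.4% of all genes) and 4 were lower (10%, against 5.02% of all genes). The 4 were Ifit2, at 9.81 to 26.4 CPM in CD8+ and 35.3 to 40 CPM in CD4+ T cells (log2 fold change -1.26 ± 0.25), Isg15, at 0 to 6.61 and 8.51 to 13.1 CPM (-1.41 ± 0.46), Samhd1, at 178.6 to 206.9 and 250.4 to 280.7 CPM (-0.48 ± 0.08), and Ifi27l2a, at 345.7 to 592.6 and 485.7 to 734.5 CPM (-0.47 ± 0.08). Each was lower in CD8+ T cells in 4 of 4 mice. Isg15 was below the filter on low counts in CD8+ T cells taken alone. It entered this fit through types in which it is higher, so its fold change is not ranked against the others. Bst2 was the higher one, at 61.3 to 89.3 CPM in CD8+ and 49.8 to 59.6 CPM in CD4+ T cells (0.50 ± 0.15, adjusted p = 0.0131 in edgeR). Without treated mouse 1 or without untreated mouse 1 both Bst2 (adjusted p = 0.0982 and 0.104) and Isg15 (0.204 and 0.0601) missed the threshold, and Isg15 rested on 12 UMIs in CD8+ T cells and also missed it without untreated mouse 2 (0.199) and in DESeq2 (0.0895).

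Annotated plasmablasts had 6 of 40 members higher than B cells (15%, against 8.56% of all genes) and 2 lower (5%, against 7.98% of all genes). Ifi27l2a stood at 862.5, 758.5, 880.3 and 876.9 CPM in plasmablasts and 483.6, 453.7, 412.5 and 488.2 CPM in B cells (log2 fold change 0.86 ± 0.07, adjusted p = 6.99e-16 in edgeR), with no overlap of the 4 mice. Bst2 was at 96.8, 73.0, 77.7 and 42.8 CPM in plasmablasts and 39.2, 33.5, 30.5 and 39.2 CPM in B cells (1.07 ± 0.17). Rtp4 (0.83 ± 0.29), Ifi47 (0.77 ± 0.28), Ddx58 (0.70 ± 0.18) and Xaf1, which binds the apoptosis inhibitor XIAP (0.65 ± 0.22), were higher too, Ifi47 in 3 of 4 mice and the others in 4 of 4. Trim25, at 61.8 to 113.3 CPM in plasmablasts and 113.5 to 135.2 CPM in B cells (-0.56 ± 0.14), and Ifi206 (-0.51 ± 0.18) were lower. Cluster 6 of the authors held 340 of the 474 annotated plasmablasts, and without it 0 members were called and Ifi47 had a value of -1.73 ± 0.87. Without the 226 B cells and 49 plasmablasts with a UMI of Lyz2, Hbb-bs or Hba-a1, 3 higher members (Bst2, Ifi27l2a and Ddx58) and both lower ones remained called. Without treated mouse 1 there were 2 higher and 1 lower, without treated mouse 2 Trim25 and Ifi206 both missed the threshold, without untreated mouse 2 Ifi206 did (adjusted p = 0.134 in edgeR), and with the same number of cells per mouse 0 were lower.

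Levels in the 12 author clusters are a description, since the clusters were made from these counts. Summed over the 44 members, unscaled by TMM, cluster 8 (144 cells, mostly CD4+ T cells) was highest at 3676 CPM and cluster 6 (plasmablasts) next at 3461 CPM, and their ranges over mice, 3095 to 4013 and 2956 to 3978 CPM, overlapped. Cluster 11 (77 cells, mostly annotated NK cells) was lowest at 1701 CPM. Of the 30 members with at least 300 UMIs, 10 had their highest level in cluster 8, among them Ifi27l2a, Irf1, Samhd1, Rtp4, Irgm2 and Igtp, and 10 in cluster 6, among them Sp100, Bst2, Ddx58, Trim30a and Ifi209. Cluster 8 included 8 cells with a UMI of the monocyte gene Lyz2, and without them Ifi27l2a stood at 1073 CPM there, against 1140 CPM with them.

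The Ifi27l2a levels of treated and untreated mice stood apart in 2 plasmablast clusters, in opposite order. In cluster 9, an annotated plasmablast cluster of 109 cells, it had 786.4 and 777.2 CPM in treated mice, against 319.9 and 320.7 CPM in untreated mice, from 83 and 78 against 24 and 24 UMIs. In cluster 6 it had 968.2 and 818.9 CPM in treated mice, against 1226 and 1267 CPM in untreated mice. Treated mice were both above in 3 of the 12 clusters and both below in 2. Both clusters and the gene were picked after these levels were seen, so the following tests are no independent evidence. The treatment effect in cluster 9 minus that in cluster 6 was 1.76 ± 0.32 on the log2 scale (adjusted p = 0.00204 in edgeR), and Ifi27l2a was the 1 member called of 13 tested (0.0604% of 3310 genes).

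Within each cluster alone no member passed. In cluster 9 the log2 fold change of Ifi27l2a was 1.28 ± 0.24 (adjusted p = 0.0676; 0 of 5 members called, 0.0756% of 1323 genes) and in cluster 6 it was -0.42 ± 0.17 (adjusted p = 0.725; 0 of 19 members, 0.0222% of 4514 genes). Cells with a UMI of Ifi27l2a made up 60.7% and 69.0% of 28 and 29 cells of cluster 9 in treated mice, against 50% and 40% of 22 and 30 cells in untreated mice, with exact 95% intervals of 40.6 to 78.5%, 49.2 to 84.7%, 28.2 to 71.8% and 22.7 to 59.4%. Median depth in these cells was 3622 and 3361 UMIs in treated and 3201 and 2276 UMIs in untreated mice. Without the highest cell of each mouse the levels were 647.2 and 697.6 CPM in treated and 278.6 and 220.3 CPM in untreated mice, and the groups still did not overlap. With another scaling, RLE size factors, cluster 9 alone passed (adjusted p = 0.0404). DESeq2 did not call the difference between clusters (adjusted p = 0.158), and it missed the threshold without untreated mouse 1 (0.627) or untreated mouse 2 (0.386).

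**Figure D4:**
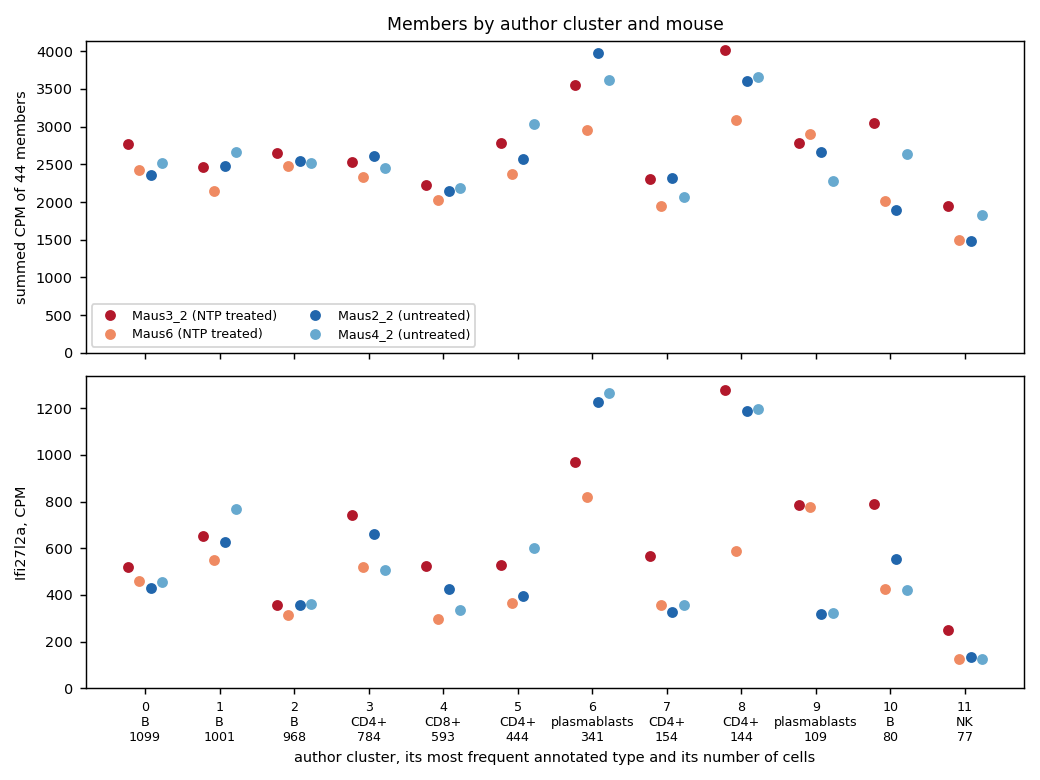
Summed CPM of the 44 members (upper panel) and CPM of Ifi27l2a (lower panel) in each author cluster (x axis, with its most frequent cell type and number of cells); each point is 1 mouse, red for NTP treated and blue for untreated. Clusters 6 and 8 stand highest in both panels, and for Ifi27l2a the treated points lie above the untreated ones in cluster 9 and below them in cluster 6.

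Most members were seen in few cells. After thinning each cell to 2000 UMIs, which left out 23 and 62 cells of treated and 12 and 179 cells of untreated mice, the share of cells with a UMI ran from 0.290% for Rsad2 to 50.3% for Sp100. Ifi27l2a was found in 45.0% of cells, with up to 26 UMIs in a thinned cell. It had the highest ratio of variance to mean, 3.15. This ratio depends on the mean, so it does not rank unevenness apart from abundance. The mean of Ifi27l2a was 1.05 UMIs per thinned cell, against 0.0131 for Ifit3 and 0.00961 for Ifit1. Ifit3 (1.38), Gbp7 (1.35), Ifit1 (1.33) and Bst2 (1.29) followed, where a ratio of 1 is that of counting alone. Ifit1 and Ifit3 were uneven although they were found in only 0.815% and 1.10% of thinned cells.

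To see whether such genes met in the same cells, 9 core members in the table were counted per cell: Ifit1, Ifit2, Ifit3, Isg15, Rsad2, Usp18, Oasl2, Rtp4 and Zbp1. At 2000 UMIs a core member was found in 21.3% of CD4+ T cells (exact 95% interval 19.3 to 23.5%, counting error only), 19.1% of CD8+ T cells, 16.4% of NK cells, 13.6% of plasmablasts and 8.88% of B cells (7.87 to 9.97%). Unthinned shares were 37.4%, 37.8%, 34.3%, 21.1% and 14.6% in the same order, at median depths of 4429, 5556, 7114, 3382 and 3364 UMIs. As a gauge of free RNA, 1.27% of thinned CD4+ T cells held a UMI of the B cell gene Cd79a and 0.482% of B cells a UMI of Cd3d. By mouse, the thinned share was 16.1% (14.2 to 18.01%) and 11.5% (10.0 to 13.2%) in treated mice, against 15.5% (13.3 to 17.9%) and 13.1% (11.3 to 14.95%) in untreated mice, so the groups overlapped.

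A small set of cells carried many core members at once. Without thinning, 39 of 5794 cells (0.673%) had 4 or more of the 9, up to 8 in a cell. The limit is a point in a range and not a cell type, with 17 cells at exactly 4 and 47 just outside at 3. There were 18 and 2 such cells in treated mice, against 12 and 7 in untreated mice, and at 2000 UMIs 12 and 4 cells in treated and 7 and 6 in untreated mice held 3 or more. The cells were 17 CD4+ T cells, 12 B cells, 8 CD8+ T cells and 2 plasmablasts, and 0 of 73 NK cells, which allows a share of up to 4.11%. These 39 cells held 14.9% of the 2255 core UMIs, which was 17.9% and 3.57% in treated and 22.4% and 13.5% in untreated mice. They were deeper than cells without a core member, with medians of 5498 and 3651.5 UMIs, and 3 of them had a UMI of Lyz2.

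The members that had not chosen these cells were also high in them. Without the core and without the 5 most abundant members, the other members summed to 3971 and 1988 CPM in such cells of treated mice and 3963 and 5063 CPM in those of untreated mice. Cells with no core member had 752.2 and 761.9 CPM in treated and 779.9 and 840.8 CPM in untreated mice. These sets of cells were not matched by type or depth. Without thinning, 37.4% of CD4+ T cells but 14.6% of B cells had a core member, and the part of type in the difference was not tested. By gene, Irf7 stood at 118 CPM in the 39 cells and 8.93 CPM in cells without a core member, Oas2 at 79.0 and 2.25 CPM, Trim30a at 458.9 and 70.7 CPM, Bst2 at 266.5 and 40.4 CPM, and Ifi27l2a at 1816 and 444.2 CPM. Such cells were found in each of the 4 mice, although treated mouse 2 had only 2.

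**Figure D5:**
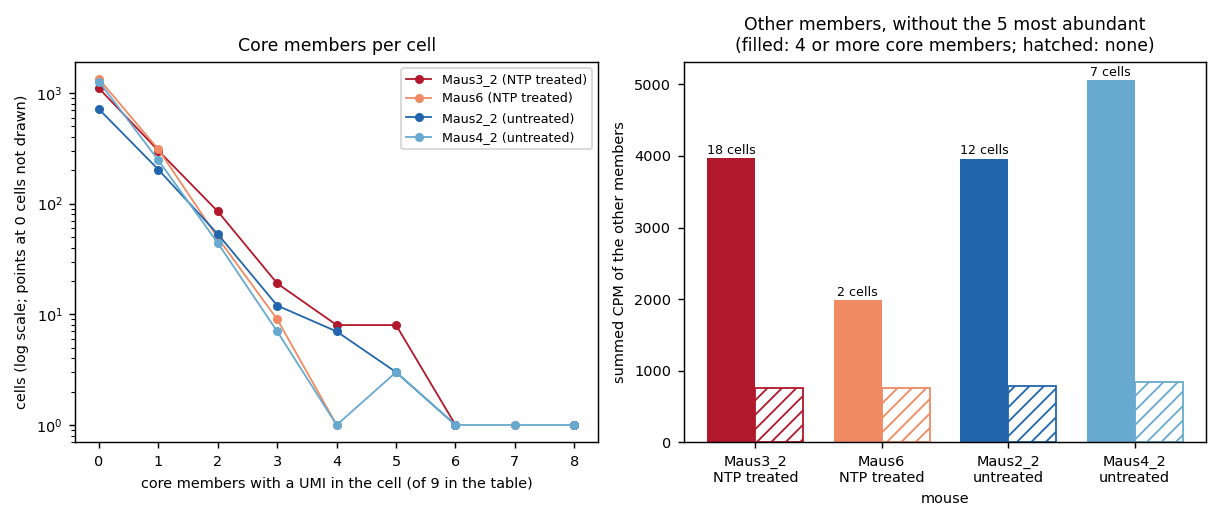
Left, number of cells (log scale) by the number of core members with a UMI, without thinning, 1 line per mouse, with points at 0 cells not drawn; right, summed CPM of the other members without the 5 most abundant in cells with 4 or more core members (filled) and none (hatched), by mouse. Counts of cells fall with each further core member in every mouse up to 3, and each filled bar is taller than its hatched one.

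Genes around the members were counted from a list of 35 other genes of the interferon pathway, of which 29 were in the table. Of 7 interferon genes only Ifng, interferon gamma, was among them, with 10 UMIs. Receptor genes ran from 26 UMIs for Ifnlr1, a chain of the type III receptor, to 4244 UMIs for Ifngr1, a chain of the interferon gamma receptor, with 1798 UMIs for Ifnar2, a chain of the type I receptor. The kinases Jak1 and Tyk2 had 13234 and 317 UMIs. After treatment 0 of the 25, 23, 21, 19 and 17 genes tested passed over all cells and in the B, CD4+ T, CD8+ T and plasmablast sums, and 1, 1, 2, 0 and 0 had an unadjusted p under 0.05 in edgeR, where 7.52%, 4.64%, 4.79%, 8.44% and 6.79% of all genes did. The factor Irf8 had the smallest over all cells, at 112.4 and 113.6 CPM in treated mice, against 90.2 and 90.5 CPM in untreated mice (log2 fold change 0.32 ± 0.09). Irf8 averaged 1.52 CPM in CD4+ T cells and 173.1 CPM in B cells, and within B cells it had 182.1 and 188.8 CPM in treated and 168.6 and 169.4 CPM in untreated mice (0.13 ± 0.11). Between CD4+ T cells and B cells 18 of 23 passed, 8 higher and 10 lower in CD4+ T cells, where 25.5% of all genes were higher and 26.4% lower. Ifngr1 averaged 254.6 CPM in CD4+ T cells and 65.0 CPM in B cells (1.95 ± 0.08), and the feedback inhibitors Socs1 (1.83 ± 0.29) and Socs3 (2.14 ± 0.24) were higher in CD4+ T cells as well. Ifnar2 was lower, with means of 58.6 CPM in CD4+ T cells and 81.1 CPM in B cells (-0.47 ± 0.11). In CD8+ T cells 4 of 23 differed from CD4+ T cells, 3 of them higher (6.4% of all genes higher and 5.02% lower), with Ifngr1 higher at a mean of 452.1 CPM. In plasmablasts 7 of 23 differed from B cells, 4 of them higher (8.56% of all genes higher and 7.98% lower), among them Socs1, at means of 17.7 CPM in plasmablasts and 4.26 CPM in B cells.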

How the data were processed

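Cells of 4 mice, 2 NTP treated and 2 untreated, were analysed from a single table of deposited UMI counts per gene and cell with a table of cell labels. Per the study's methods and the labels, the authors aligned reads to mm10 with Cell Ranger 7.1.0, removed ambient RNA with SoupX, filtered cells on features and mitochondrial share, removed doublets with DoubletFinder, integrated the mice in Seurat 4.3.0, clustered the cells and named types by markers. No source used here says whether the deposited counts are those before or after this removal. The mitochondrial percent per cell was also deposited by the authors, as were type and cluster. No doublet caller was run, and 0 sample columns were left unmatched.

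Counts were summed per mouse and type, for types with at least 20 cells in each mouse. NK cells were not tested. Sums were fitted with edgeR 4.0.16 in R 4.3.3 (TMM, filterByExpr, quasi-likelihood test, two-sided), Benjamini-Hochberg adjusted over all genes of a fit, with a threshold of 0.05. Types were compared in 1 fit with the mouse as a block. Binomial intervals are exact (Clopper-Pearson, 95%) and, like the limit for a count of 0 (3 counts), cover counting error only. Each sample is 1 mouse by its labelled ID. In treatment comparisons p-values measure the spread between these mice. With the mouse as a block they measure how differences within a mouse vary from mouse to mouse. Scripts were tested on simulated counts.

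The members and all lists were chosen with earlier results of these data known. Members given with values were the 5 with the smallest unadjusted p in each treatment comparison and the most abundant in each of 8 role groups. Up to 4 called members with the largest fold change in each direction between types were also given. So were the 5 with the highest ratio of variance to mean over cells. Others named with values were chosen after their values were seen. Alternatives were RLE size factors, DESeq2 1.42.0, no filter, each mouse left out, the same number of cells per mouse or per cluster and mouse, and unthinned cells. Leaving out cluster 6, cluster 8 or cells with a UMI of Lyz2, Hbb-bs or Hba-a1, the interactions for CD8+ T cells and plasmablasts, and the comparison of clusters 9 and 6 were chosen after seeing the data.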

Additional observations from a re-analysis of the deposited data

Results flagged for a closer look

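Ifi27l2a stood out because its difference between treated and untreated mice was itself different in the plasmablast clusters 9 and 6: the log2 fold change in cluster 9 minus that in cluster 6 was 1.76 ± 0.32 (adjusted p = 0.00204 in edgeR's quasi-likelihood test). The comparison was picked after the levels were seen, rests on 24 UMIs of the gene in each untreated mouse of cluster 9, and was not called by DESeq2.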

How the results depend on the processing

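No member passed the treatment test in any alternative tried, in all cells or in the 4 types. No paired analysis of treated and untreated mice was possible because the labels give no number that pairs mice across the groups. The mouse as a block was part of every comparison of types. For all cells, values changed sign as follows on the log2 scale. Without each mouse in turn Ifi47 ran from -0.098 to 0.042, Trim25 from -0.0083 to 0.21, Sp100 from -0.089 to 0.030, Oasl2 from -0.86 to 0.23, Ifi27l2a from -0.13 to 0.23 and Irf1 from -0.11 to 0.14, and in plasmablasts Ddx58 ran from -0.73 to 0.051. Without cells with Lyz2 or red cell genes Ifi47 was at 0.011, with the same number of cells per cluster and mouse Ifi27l2a was at -0.015, and with the same number per mouse Irf1 was at -0.041. The cause was not tested.

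Between CD8+ and CD4+ T cells, 0 to 1 members were higher without each mouse in turn, and 2 without cluster 8. Between plasmablasts and B cells 2 to 5 were higher and 0 to 2 lower without each mouse in turn, 3 were higher with no filter on low counts and without cells with Lyz2 or red cell genes, and 1 was lower with RLE size factors and with DESeq2. With the same number of cells per mouse 0 were lower. Without cluster 6, 0 were higher, 0 lower, and Ifi47 was at -1.73. Shares of cells with a core member, without thinning, were 37.4% for CD4+ and 37.8% for CD8+ T cells, 34.3% for NK cells, 21.1% for plasmablasts and 14.6% for B cells, all above the thinned shares. Over all genes, the treatment calls in all cells numbered 0, but 19 with DESeq2, 36 with no filter and 3 to 41 without each mouse in turn. In the types, no filter gave 21 calls in B cells, 11 in each T cell type and 13 in plasmablasts. For members with few UMIs, such as the Oas genes, Rsad2 and Ifit1 in B cells, depth limits what could be seen.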
